A study of Rattus norvegicus with 6 samples.

Results

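This account follows 34 genes of excitation-contraction coupling and of the muscle fibre's membrane channels in the flexor digitorum longus of rats, a muscle of the lower leg that bends the toes. The genes were taken by name from the 30957 rows of the deposited gene table, and all 34 were found once each. The comparison was of 3 control libraries taken at 0 h with 3 libraries taken 18 h into acute osteofascial compartment syndrome (ACS), in which swelling within a tight fascial space raises the pressure and starves the muscle of blood. Control was taken only at 0 h and ACS only at 18 h, so ACS and the time elapsed cannot be told apart. All rats were wild-type Sprague-Dawley animals, and ACS was induced by tying a low-elastic band around the skin at the knee. Since the treatment entry in the labels is ACS for both groups, the groups rest on the sample titles. The sources used here give neither age nor sex, nor whether each library came from its own rat, so p-values measure the spread between these libraries, which may be technical.

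Excitation-contraction coupling turns an action potential on the fibre membrane into calcium release and force. The action potential runs into the transverse tubules, where the voltage sensor, a calcium channel named the dihydropyridine receptor, touches and opens the ryanodine receptor of the sarcoplasmic reticulum at a junction called the triad. Calcium leaves the store, and pumps of the SERCA family return it, while sodium, chloride and potassium channels of the surface membrane set how easily the next action potential starts.

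No gene of the 34 passed the test between ACS and control muscle. EdgeR's quasi-likelihood test with Benjamini-Hochberg adjustment over all 12873 tested genes called 0 of 34 higher and 0 of 34 lower at an adjusted p under 0.05. Over all tested genes it called 3.43% higher and 0.707% lower, so a count of 0 in 34 is near the background. At an unadjusted p under 0.05, 2 of the 34 were lower (Kcnj2 and Cacng6) and 0 higher, against 7.98% lower and 15.5% higher over all genes. DESeq2 called 1 of the 34 lower, Kcnj2, against 3.6% of all genes. Limma-voom called 0, as did limma on FPKM (fragments per length of gene and size of library, the authors' other unit), which tested 33 of the 34. Nor did the groups separate often in counts scaled as for edgeR: all ACS libraries lay below all control libraries in 4 genes (Kcnj2, Cacng6, Mtm1 and Ryr3), against 14.8% of all genes, and above them in 0, against 16.7%. In FPKM, which is scaled by library total, all ACS libraries lay below control in Hrc, Cacnb1 and Clcn1 as well. The share of all genes that separate in FPKM was not computed.

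The intervals left room for changes in most genes. For 11 of 34 genes the 95% interval of the log2 fold change excluded both a 2-fold decrease and a 2-fold increase, and for 29 it excluded a 2-fold increase. It excluded a 2-fold decrease for 15, so that for the other 19 a 2-fold decrease lay within the interval. The standard errors lay between 0.240 and 0.816 with a median of 0.387. Changes of that size were not detectable with 3 libraries a group, and larger ones could be missed. Kcnj2, with a log2 fold change of -1.33, did not pass in edgeR (adjusted p = 0.0941). In whole muscle, fewer fibres and less RNA per fibre cannot be told apart.

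**Figure D1:**
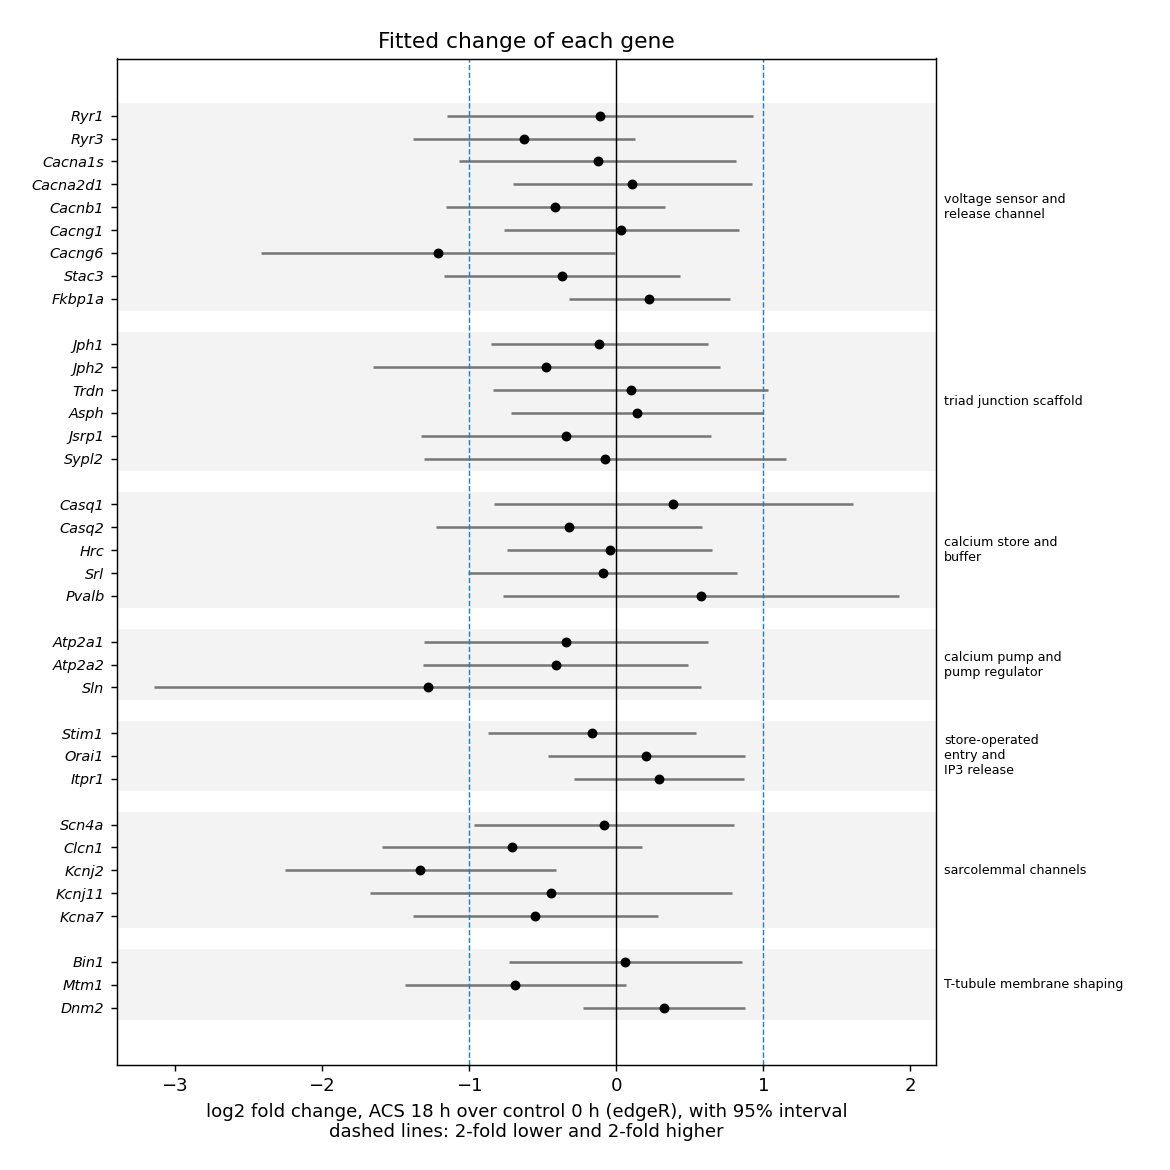
Log2 fold change of each gene in ACS over control muscle (points) with its 95% interval (lines), from edgeR, with 3 libraries a group; genes are grouped by role and dashed lines mark 2-fold changes. The intervals of 32 of 34 genes include 0, and those of Kcnj2 and Cacng6 lie below it.

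The 3 ACS libraries did not behave alike, and this bears on every value that follows. ACS replicate 1 gave the lowest scaled counts (CPM, counts relative to library size, scaled with TMM factors) of all 6 libraries in 27 of the 34 genes, and ACS replicate 3 the highest in 16. Relative to the mean of the control libraries, on the log2(CPM + 0.5) scale, the median of the 34 genes was -1.03 in ACS replicate 1, -0.14 in replicate 2 and 0.22 in replicate 3. Over all tested genes these medians were -0.07, -0.03 and -0.0097. In 11 abundant sarcomere and energy genes (such as the skeletal actin Acta1 and the creatine kinase Ckm) they were -0.23, -0.11 and 0.45. By the median, ACS replicate 1 thus stood lower in the coupling genes than in this reference. The reference genes did not move as 1 in that library, where they ran from -1.34 (Acta1) to 0.40 (Tnnt3). The median of 8 slow fibre markers there was lower than both, at -1.43. Mitochondrial genes took 43.4% of the counts in ACS replicate 1, against 4.82% and 5.33% in the other ACS libraries and 7.52% to 8.60% in control muscle, out of library totals of 14340865 to 21003928. The summed level of 8 myeloid cell markers was 337 CPM in ACS replicate 1, 40.1 and 58.7 CPM in replicates 2 and 3 and 19.1 to 27.4 CPM in control. By edgeR 3 of the 8 were called higher, and at an unadjusted p under 0.05 6 were higher and 1 lower. The part of these shifts in the values below was not tested.

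Without ACS replicate 1 edgeR again called 0 of 34 in either direction, while 4.99% of all genes were called higher and 1.69% lower. At an unadjusted p under 0.05 in that fit, 0 of the 34 were higher and 1 lower, against 14.1% and 9.54% of all genes. The median log2 fold change of the 34 was -0.12 with all libraries and 0.10 without ACS replicate 1, and over all genes -0.01 and -0.0041. The number of the 34 with a negative estimate was 23 with all libraries and 15 without ACS replicate 1. It was 31 when libraries were scaled by their totals, a scaling that put the median of all genes at -0.32 and of the 34 at -0.39. The side on which the set fell therefore turned when ACS replicate 1 was left out. Without ACS replicate 3 the median of the 34 was -0.48 with 30 negative estimates, beside a median of -0.01 over all genes. Without ACS replicate 2 the median of the 34 was -0.25 with 22 negative estimates. With single control libraries left out it lay between -0.25 and -0.15. As a share of all counts outside the mitochondrial chromosome, the 34 genes took 3.56%, 3.24% and 3.10% in control and 1.91%, 2.75% and 3.63% in ACS muscle, and the groups overlapped.

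**Figure D2:**
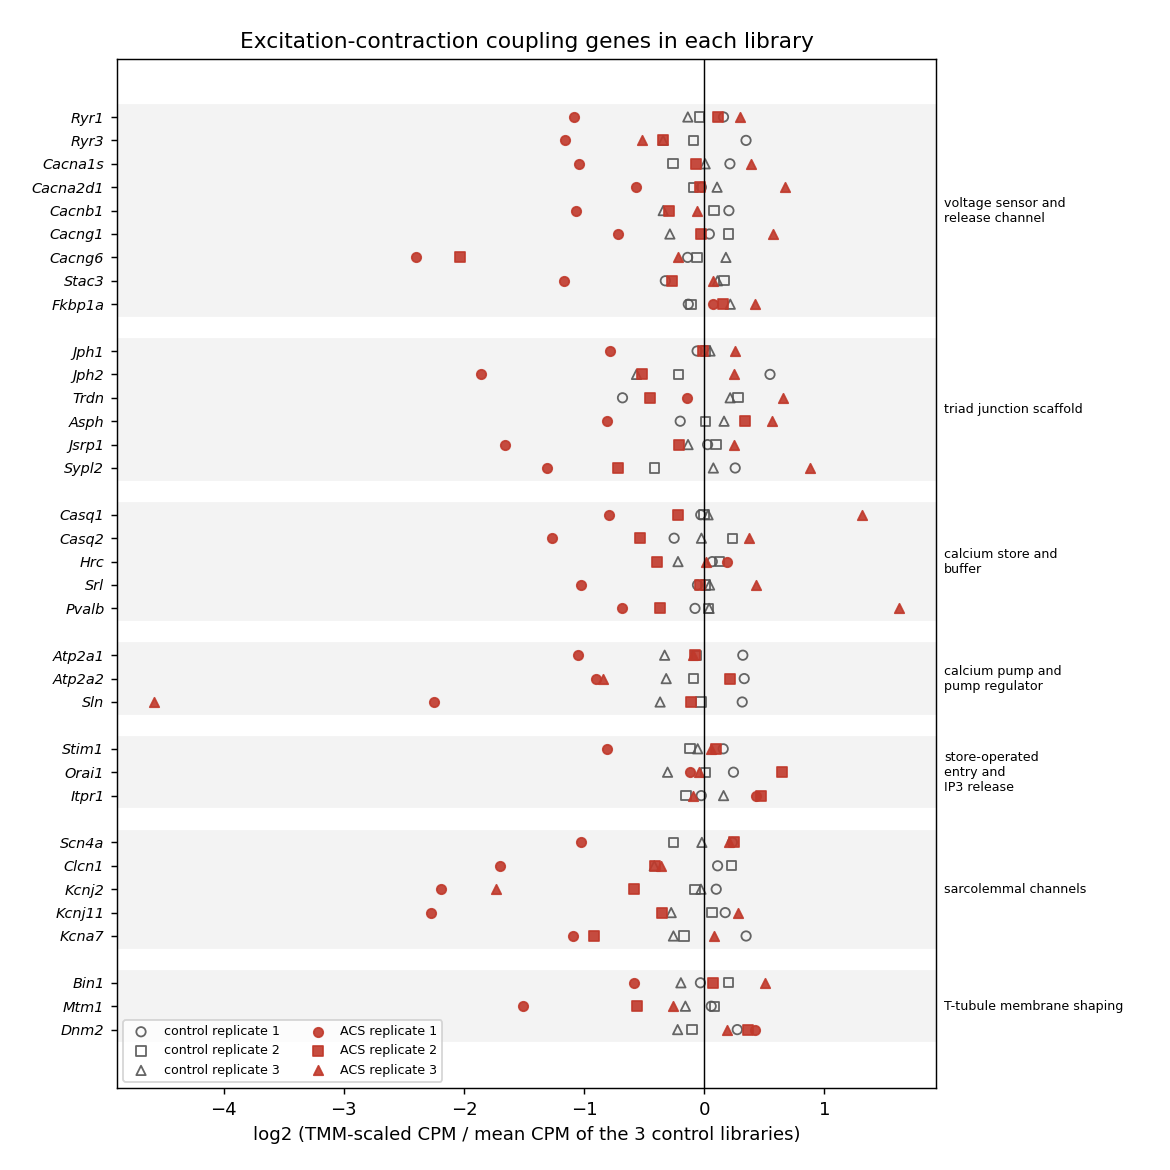
Level of each gene in each library as log2 of its TMM-scaled CPM over the mean of the 3 control libraries (open symbols control, filled symbols ACS, 1 shape per replicate number), grouped by role. ACS replicate 1 (filled circles) is the lowest library for 27 genes and ACS replicate 3 (filled triangles) the highest for 16.

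Levels per length placed the pump, the calcium buffers and the release channel on top, though the row for the pump, Atp2a1, covers only a part of that gene. In control muscle the authors' FPKM was 12570 ± 2528 for Atp2a1, 2734 ± 195 for Pvalb, 1136 ± 56.7 for Casq1 and 556 ± 43.3 for Ryr1 (SD, n = 3 each). The lowest were Sln at 4.99 ± 1.03 and Ryr3 at 0.968 ± 0.212 FPKM. Ordered by control mean, the top 4 genes did not overlap with their neighbours, but 20 of 33 neighbouring pairs did, so most of the middle of the order is not resolved. The order in each ACS library followed that of control muscle, with a Spearman correlation across the 34 genes of 0.951, 0.979 and 0.982 in ACS replicates 1, 2 and 3. Genes are not independent replicates, and the libraries share their gene lengths.

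**Figure D3:**
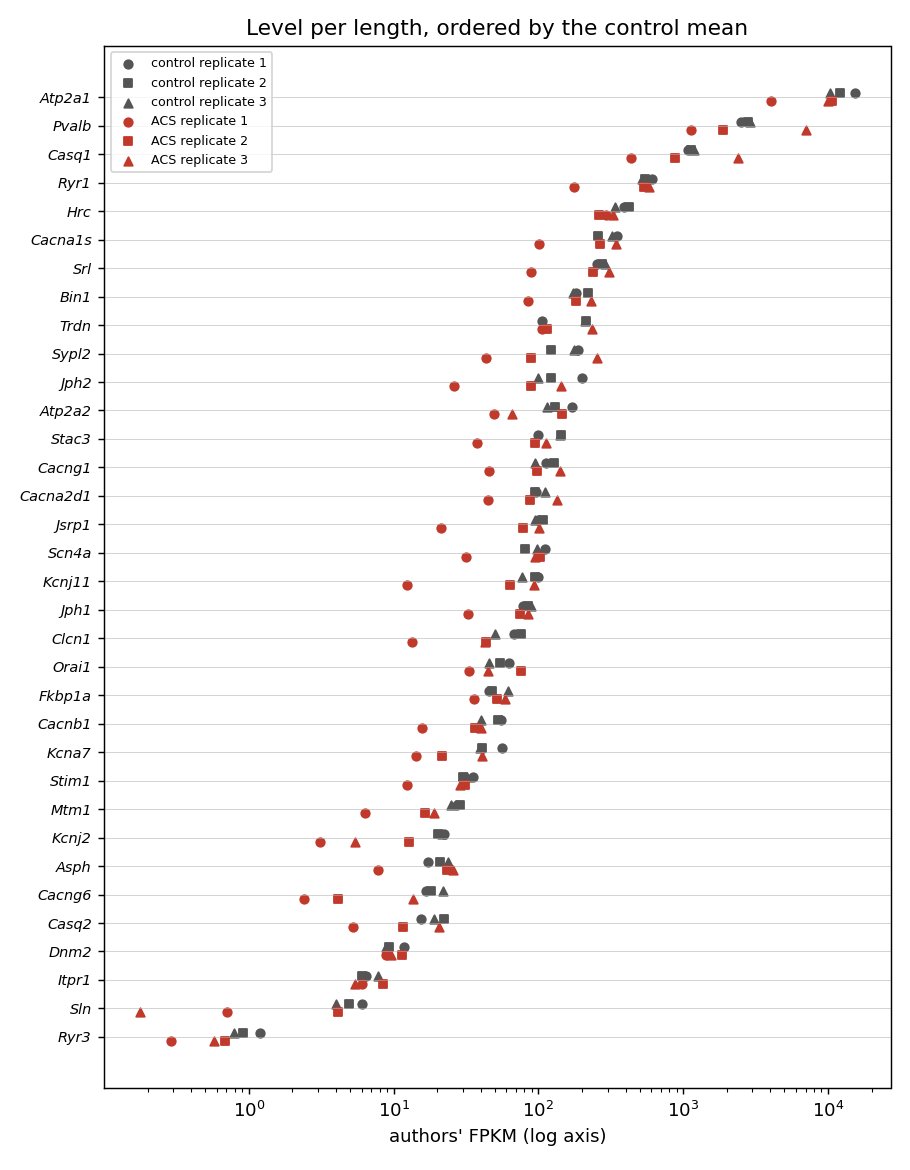
Authors' FPKM of each gene in each library on a log axis, ordered by the control mean (dark symbols control, red symbols ACS, 1 shape per replicate number). Levels run from about 12570 FPKM for Atp2a1 to 0.968 FPKM for Ryr3, and the order of the genes is similar in both groups.

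The voltage sensor and release channel gave 9 genes, with log2 fold changes from -1.21 to 0.23. Ryr1, the calcium release channel of adult skeletal muscle (ENSRNOG00000020557, chr1:87959712-88066101 of Rnor 6.0), was at 8437, 7348 and 6868 CPM in control replicates 1 to 3 and at 3568, 8176 and 9269 CPM in ACS replicates 1 to 3. The ACS libraries thus enclosed the control libraries, and the log2 fold change was -0.11 (SE 0.456, adjusted p = 0.906; 0.21 without ACS replicate 1). Cacna1s, the pore and voltage sensor of the dihydropyridine receptor (chr13:52889737-52964155), was at 1782, 1284 and 1545 CPM in control and 746, 1464 and 2015 CPM in ACS muscle, with the same order of ACS libraries as Ryr1. Its log2 fold change was -0.13 (SE 0.414, adjusted p = 0.877; 0.18 without ACS replicate 1). The ratio of Cacna1s to Ryr1, which does not depend on library scaling, was -0.85 ± 0.190 in control and -0.86 ± 0.148 in ACS muscle (log2 of FPKM, SD, n = 3 each). The exact 2-sided permutation test of that ratio gave p = 0.9.

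The promoter of Cacna1s is shown because this gene is the voltage sensor and because its window held 3 matches. It is the 250 bases before the RefSeq start on the build GRCr8 (plus strand), 5′ to 3′, with capitals for the E-box CAGCTG, a site type bound by myogenic factors, and the MCAT motif CATTCC on either strand:

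Cacna1s, chr13:50045418-50045667: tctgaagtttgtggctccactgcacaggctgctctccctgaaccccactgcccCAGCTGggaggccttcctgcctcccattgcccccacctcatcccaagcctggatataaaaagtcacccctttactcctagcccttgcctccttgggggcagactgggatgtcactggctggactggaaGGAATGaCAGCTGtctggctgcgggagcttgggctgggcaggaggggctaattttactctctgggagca

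The CAGCTG matches start 197 and 62 bases before the start site, and the MCAT match starts 69 bases before it. RefSeq windows of 300 bases, which run on past the start, were found for 26 of the 34 genes (29 windows). CAGCTG, searched on both strands, was in 8 of the 29 windows, or 27.6%, and in 15.1% of all 33469 promoter windows. CANNTG, the wider E-box pattern that includes CAGCTG, was in 72.4% and 72.1%. CATTCC was in 1 of the 29 windows (3.45%) and in 14.2% of all. The GC box GGGCGG, a site type of general promoter factors, was in 19 of the 29 windows (65.5%) and in 33.1% of all. Those 19 windows belong to 16 of the 26 genes, since some genes have more than 1 window. The CArG box, the element of serum response factor, was in 0 of the 29 and in 1.64% of all. A match is a description of the letters and shows no binding.

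Cacng6, an accessory gamma subunit of voltage-gated calcium channels (chr1:64305438-64321241), had the second smallest p of the 34. It was at 60.3, 63.6 and 75.2 CPM in control and 12.6, 16.2 and 56.9 CPM in ACS replicates 1, 2 and 3. ACS replicates 1 and 2 were far below control and replicate 3 just below it. Control muscle averaged 66.4 ± 7.83 CPM and ACS muscle 28.6 ± 24.6 CPM (SD, n = 3 per group). The log2 fold change was -1.21 (SE 0.528, 95% interval -2.41 to -0.01, adjusted p = 0.209). Without ACS replicate 3 the log2 fold change was -2.20 and Cacng6 passed (adjusted p = 0.00691, with 3.01% of all genes called lower), and without ACS replicates 1 and 2 it was -0.86 and -0.95. Without the 2 libraries whose description holds "ji" (control and ACS replicate 3) it was -2.10 and also passed (adjusted p = 0.0421, with 0.23% of all genes lower).

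The other gamma subunit, Cacng1, did not share that pattern of values: it was at 107 to 150 CPM in control and 79.3 to 193 CPM in ACS muscle (log2 fold change 0.04, adjusted p = 0.964). Ryr3, a release channel isoform best known from developing muscle and some fibres, was at 16.2, 11.9 and 10.03 CPM in control and 5.70, 10.03 and 8.87 CPM in ACS replicates 1, 2 and 3. Control replicate 3 and ACS replicate 2 were almost level, and the log2 fold change was -0.63 (SE 0.331, adjusted p = 0.287). Stac3, an adaptor that the voltage sensor needs to reach and work at the triad, was at 140, 196 and 189 CPM in control and 77.9, 146 and 184 CPM in ACS muscle (-0.37, adjusted p = 0.559).

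Cacnb1, the beta subunit that brings the sensor to the membrane, was at 216, 198 and 148 CPM in control and 89.3, 153 and 179 CPM in ACS muscle, and its groups overlapped (-0.41, adjusted p = 0.474). Cacna2d1, the alpha-2-delta subunit, and Fkbp1a, the FK506-binding protein that steadies the closed release channel, had log2 fold changes of 0.11 and 0.23. Fkbp1a had the smallest standard error of the 34, with a 95% interval from -0.32 to 0.77. The ratio of Ryr3 to Ryr1 was -9.19 ± 0.198 in control and -9.61 ± 0.370 in ACS muscle (log2 of FPKM; exact permutation p = 0.2).

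The junction scaffold, which holds the tubule and the store together, gave 6 genes with log2 fold changes from -0.47 to 0.14. Trdn, the triadin that links calsequestrin to the release channel, had the highest FPKM of this group, at 177 ± 60.8 in control. It was at 479, 933 and 892 CPM in control and 696, 560 and 1212 CPM in ACS muscle, so that control replicate 1 was the lowest of the 6 libraries (log2 fold change 0.10, SE 0.409, adjusted p = 0.904). Jph1 and Jph2 encode junctophilins, which tether the 2 membranes. Jph1 was at 360, 377 and 387 CPM in control and 218, 372 and 449 CPM in ACS muscle (-0.11, adjusted p = 0.857). Jph2 was at 393, 232 and 182 CPM in control and 74.1, 187 and 319 CPM in ACS muscle (-0.47, adjusted p = 0.610). The 6 libraries of Jph2 spanned a wider range than those of Jph1 in both groups, and the log2 ratio of Jph2 to Jph1 was 0.68 ± 0.622 in control and 0.22 ± 0.534 in ACS muscle (exact permutation p = 0.5).

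The remaining scaffold genes were Asph, whose products include the triad protein junctin, Jsrp1, a protein that binds the voltage sensor and calsequestrin, and Sypl2, the mitsugumin of the triad membrane. Their log2 fold changes were 0.14, -0.34 and -0.07, with adjusted p of 0.841, 0.660 and 0.949. Sypl2 had one of the widest spreads in ACS muscle, at 199, 300 and 907 CPM against 590, 371 and 520 CPM in control.

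Among the genes of the store and its buffers, Casq1 and Pvalb stood apart in 1 library. Casq1, the fast-fibre calsequestrin that holds calcium inside the store (chr13:90592681-90602365), was at 1830, 1864 and 1909 CPM in control and 1079, 1607 and 4640 CPM in ACS muscle. Pvalb, parvalbumin, a cytosolic calcium buffer of fast fibres (chr7:119429019-119441487), was at 1240, 1339 and 1345 CPM in control and 816, 1014 and 4016 CPM in ACS muscle. In both, control libraries lay close together, ACS replicates 1 and 2 lay below them and ACS replicate 3 lay above. The log2 fold changes were 0.39 (SE 0.535, adjusted p = 0.687) for Casq1 and 0.58 (SE 0.591, adjusted p = 0.586) for Pvalb. Without ACS replicate 3 they were -0.48 and -0.52, and without ACS replicate 1 they were 0.74 and 0.94, so their sign rested on single libraries. Of 8 listed fast fibre markers 6 were matched, and the myosins Myh2 and Myh4 were not. The summed level of the 6, led by the row named for the myosin Myh1, moved with Casq1 and Pvalb. It was at 64628 and 65954 CPM in ACS replicates 1 and 2 and 139688 CPM in replicate 3, against 78982 to 86326 CPM in control. The row named Myh1 has 19176 counted bases, against 6035 for the myosin Myh3, so it may hold more than Myh1 alone. The part of this sum in the values of Casq1 and Pvalb was not tested.

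Casq2, the calsequestrin of slow fibres and heart, was at 35.7, 49.97 and 41.8 CPM in control and 17.7, 29.4 and 54.9 CPM in ACS muscle (-0.32, adjusted p = 0.652). The log2 ratio of Casq2 to Casq1 was lower in 3 of 3 ACS libraries than in every control library. It was -6.14, -5.68 and -5.97 in control and -6.39, -6.23 and -6.86 in ACS muscle, a difference of -0.56. The exact permutation p was 0.1, the smallest that 3 libraries against 3 allow, and 0.467 adjusted over the 7 ratios computed. Hrc, a histidine-rich calcium-binding protein of the store, was at 915, 955 and 751 CPM in control and 999, 666 and 880 CPM in ACS muscle, with ACS replicate 1 just above and replicate 2 just below the control range (-0.04, adjusted p = 0.949). Srl, sarcalumenin, a luminal calcium-binding glycoprotein, had a log2 fold change of -0.09.

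The pump group held 3 genes. Atp2a1, the fast-fibre calcium pump SERCA1, was at 7634, 5840 and 4864 CPM in control and 2958, 5806 and 5715 CPM in ACS muscle. Only ACS replicate 1 lay outside the control range (-0.34, SE 0.424, adjusted p = 0.652; -0.09 without it). The deposited row for this gene spans 1114 bases (chr1:197856903-197858016), and the ratio of its counts to its FPKM implies 543 counted bases. That is shorter than the coding sequence of the pump, so the row covers a part of the gene, and its FPKM is the level of that part. Atp2a2, the SERCA2 pump of slow fibres and heart, was at 1106, 824 and 706 CPM in control and 470, 1022 and 491 CPM in ACS muscle (-0.41, adjusted p = 0.560). Sln, sarcolipin, a small membrane protein that slows SERCA pumps, was near the floor of detection with 34, 27 and 25 counts in control and 3, 24 and 1 in ACS replicates 1, 2 and 3. Its log2 fold change of -1.28 had a 95% interval from -3.14 to 0.58 (adjusted p = 0.378). It was -3.14 without ACS replicate 2 (adjusted p = 0.0867) and -0.73 without ACS replicate 3.

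The promoter of Atp2a1 is shown because its row, which covers a part of the gene, had the highest level per length of the set. It is the 250 bases before the RefSeq start on GRCr8 (minus strand), 5′ to 3′, with the E-box CAGCTG, which starts 41 bases before the start site, in capitals:

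Atp2a1, chr1:190475411-190475660: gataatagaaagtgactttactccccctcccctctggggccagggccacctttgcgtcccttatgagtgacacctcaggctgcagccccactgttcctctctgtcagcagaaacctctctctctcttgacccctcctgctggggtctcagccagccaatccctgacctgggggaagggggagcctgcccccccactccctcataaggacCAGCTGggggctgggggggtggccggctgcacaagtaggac

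The ratio of Atp2a2 to Atp2a1 was steady in control muscle and not in ACS muscle. Its log2 value was -6.49, -6.53 and -6.49 in control and -6.36, -6.21 and -7.25 in ACS replicates 1, 2 and 3, with a mean difference of -0.10 and an exact permutation p of 1. ACS replicate 3 was thus the lowest and the other ACS libraries the highest. The log2 ratio of Sln to Atp2a1 was -11.3 ± 0.0376 in control, and -12.5, -11.3 and -15.8 in ACS replicates 1, 2 and 3 (exact permutation p = 0.2). The lowest of these rests on 1 Sln count and the next on 3.

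Markers of slow fibres, the skeletal fibre type that Atp2a2 and Casq2 are known from, were measured beside them. Their summed level over 8 genes was 2765 to 3599 CPM in control and 1660, 2514 and 1419 CPM in ACS replicates 1, 2 and 3, and the groups did not overlap. All 8 had a negative estimate, with a median of -1.10, and 1 fell by the test, Myh7b. At an unadjusted p under 0.05 in edgeR 4 of the 8 were lower and 0 higher, against 7.98% and 15.5% of all genes. In 5 of the 8 all ACS libraries lay below all control libraries, against 14.8% of all genes. None of the 8 was at 0 in every library, though Myl2 had no count in ACS replicate 1. Casq2 was highest in ACS replicate 3, where the sum was lowest. Among the ACS libraries Atp2a2 was highest in replicate 2, as was the sum, and there Atp2a2 lay within its control range. The part of fibre type in the values of the slow isoforms was not tested.

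**Figure D4:**
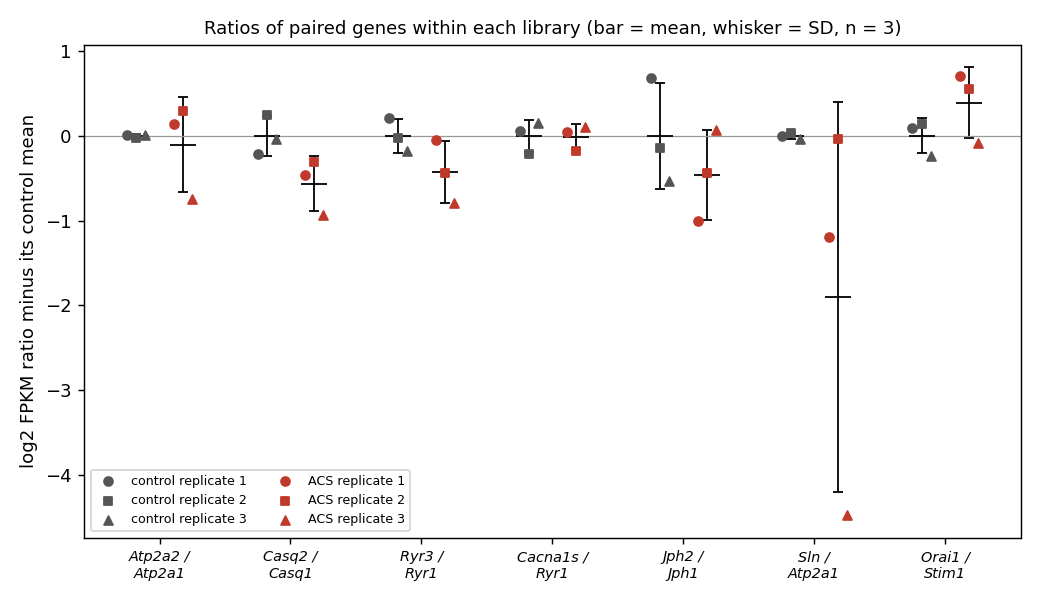
Log2 FPKM ratio of 7 gene pairs in each library, minus the control mean of that pair (dark symbols control, red symbols ACS, 1 shape per replicate number; bars and whiskers are the mean and SD of 3 libraries). Casq2 to Casq1 is the pair whose groups do not overlap, and the spread of Sln to Atp2a1 in ACS muscle comes from libraries with 3 and 1 Sln counts.

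Store-operated entry refills the store from outside the fibre: Stim1 senses an empty store and opens the Orai1 channel. Stim1 was at 210, 173 and 181 CPM in control and 107, 202 and 195 CPM in ACS muscle (-0.16, adjusted p = 0.774). Orai1 was at 64.3, 54.7 and 43.9 CPM in control and 50.02, 85.0 and 52.8 CPM in ACS muscle (0.21, adjusted p = 0.696). Both pairs of groups overlapped, and the log2 ratio of Orai1 to Stim1 was 0.73 ± 0.207 and 1.12 ± 0.419 (exact permutation p = 0.3). Itpr1, an inositol trisphosphate receptor that many cell types use for calcium release, was at 64.1, 58.7 and 72.9 CPM in control. In ACS muscle it was at 87.8, 90.3 and 61.2 CPM, with replicates 1 and 2 above all control libraries (0.29, adjusted p = 0.521).

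The 5 sarcolemmal channels all had negative estimates, from -1.33 to -0.08, and 0 of 5 passed in edgeR (1 with an unadjusted p under 0.05). Kcnj2, the inward rectifier Kir2.1 that holds the resting potential near that of potassium (ENSRNOG00000004720, chr10:99437436-99439114), had the smallest p of the 34. It was at 34.2, 30.3 and 31.3 CPM in control and 7.01, 21.3 and 9.59 CPM in ACS replicates 1, 2 and 3. The control libraries lay close together and all ACS libraries lay below them. Control muscle averaged 31.9 ± 2.04 CPM and ACS muscle 12.6 ± 7.64 CPM (SD, n = 3 per group). The log2 fold change was -1.33 (SE 0.404, 95% interval -2.25 to -0.41, adjusted p = 0.0941). DESeq2 gave the same log2 fold change of -1.33 with an adjusted p of 0.0227. In edgeR without ACS replicate 2 it was -1.97 and passed (adjusted p = 0.0375, with 0.129% of all genes called lower), and without ACS replicates 1 and 3 it was -1.05 and -1.16.

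The promoters of Kcnj2 and Clcn1 are shown because these channels had the 2 most negative estimates of the group. Both are the 250 bases before the RefSeq start on GRCr8 (plus strand), 5′ to 3′. Capitals mark the E-box CAGCTG in Kcnj2 and a MEF2 site, the element of the muscle factors of that name, in Clcn1:

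Kcnj2, chr10:96559975-96560224: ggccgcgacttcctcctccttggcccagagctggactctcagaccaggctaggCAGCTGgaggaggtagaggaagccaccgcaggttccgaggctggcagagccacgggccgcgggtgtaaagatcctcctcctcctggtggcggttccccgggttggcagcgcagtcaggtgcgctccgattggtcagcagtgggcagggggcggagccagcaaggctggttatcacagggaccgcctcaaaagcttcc

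Clcn1, chr4:72138928-72139177: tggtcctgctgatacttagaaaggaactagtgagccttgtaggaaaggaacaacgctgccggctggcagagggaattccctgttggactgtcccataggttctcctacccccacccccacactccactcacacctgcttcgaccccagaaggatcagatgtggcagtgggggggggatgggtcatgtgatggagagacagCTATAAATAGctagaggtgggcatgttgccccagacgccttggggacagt

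The match in Kcnj2 starts 197 bases and that in Clcn1 50 bases before the start site. MEF2 sites, searched on both strands, were in the windows of 2 of the 26 genes, Clcn1 and Casq2 (6.9% of 29 windows), and in 3.29% of all promoter windows.

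Clcn1, the chloride channel that damps repeated firing of the fibre (chr4:71675383-71702819), was at 200, 217 and 139 CPM in control and 57.0, 139 and 144 CPM in ACS muscle. ACS replicates 2 and 3 were level with control replicate 3, and the log2 fold change was -0.71 (SE 0.388, adjusted p = 0.305). Kcna7, a voltage-gated potassium channel, was at 186, 130 and 122 CPM in control and 68.3, 77.1 and 154 CPM in ACS muscle (-0.55, adjusted p = 0.400). Kcnj11, the pore of the ATP-sensitive potassium channel that opens when energy runs low, was at 276, 256 and 202 CPM in control and 50.7, 192 and 298 CPM in ACS muscle (-0.44, adjusted p = 0.646). Its value without ACS replicate 1 was near control (-0.0029). Scn4a, the adult sodium channel that carries the action potential, was at 706, 503 and 592 CPM in control and 295, 714 and 691 CPM in ACS muscle. Of these, ACS replicate 1 was the lowest and the other 2 were level with the top of control (-0.08, SE 0.387, adjusted p = 0.916; 0.22 without ACS replicate 1).

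The membrane-shaping group held Bin1, the amphiphysin that bends membrane into tubules, Mtm1, the phosphoinositide phosphatase myotubularin, and Dnm2, a dynamin that cuts membrane. The row named Mtm1, a gene that is X-linked in other mammals, lies at chr6:18821815-18839409 in the deposited table. It was at 61.4, 62.7 and 52.9 CPM in control and 20.8, 40.0 and 49.3 CPM in ACS muscle. All ACS libraries were below control, replicate 3 by little (-0.68, SE 0.330, adjusted p = 0.249; -0.41 without ACS replicate 1). Bin1 was at 604, 709 and 540 CPM in control and 411, 649 and 877 CPM in ACS muscle (0.06, adjusted p = 0.930). Dnm2 was at 52.0, 40.1 and 36.9 CPM in control and 57.7, 55.3 and 49.0 CPM in ACS muscle, so that control replicate 1 lay within the ACS range (0.33, adjusted p = 0.445). Dnm2 overlaps Tmed1 on the other strand, and the sources used here do not say whether counting used strand. Tmed1 was at 24.8 to 26.0 CPM in control and 8.32 to 21.1 CPM in ACS muscle.

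Beyond these 34, 56 other genes of coupling, calcium handling and channels were counted, of which 52 were matched and 49 tested. By edgeR 0 of the 49 rose and 1 fell, Pln, against the 3.43% and 0.707% of all genes given above. DESeq2 called 3 higher (Homer3, Orai2 and Dysf) and 3 lower (Pln, Atp2b4 and Kcnq5), against 10.3% and 3.6% of all genes, and limma-voom 0. The median log2 fold change of the 49 was -0.23, beside -0.12 for the 34 and -0.01 for all tested genes. At an unadjusted p under 0.05 in edgeR, 3 of the 49 were higher and 7 lower, against 15.5% higher and 7.98% lower over all genes.

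Pln, phospholamban, the pump inhibitor of slow fibres and heart (chr20:34633157-34642904), was at 3.56, 4.93 and 3.92 CPM in control and 1.31, 1.18 and 1.34 CPM in ACS muscle. The groups were apart and each was tight, with 73 to 102 counts in control and 14 to 24 counts in ACS libraries. The log2 fold change was -1.69 (SE 0.360, adjusted p = 0.0435), and -1.71 without ACS replicate 1 (adjusted p = 0.0307). Pln lies within Cep85l on the opposite strand. Cep85l was at 69.8, 81.8 and 192 CPM in control and 409, 440 and 280 CPM in ACS muscle, and reads of both cannot be told apart if strand was not used. The call was lost at log2 fold changes of -1.60 to -1.84: without ACS replicate 2 (-1.67, adjusted p = 0.0831), without control replicates 1, 2 or 3 (-1.84, -1.60 and -1.77, adjusted p = 0.170, 0.191 and 0.147) and in limma-voom (-1.66, adjusted p = 0.0564). It was also lost with the myofibre scaling (-1.61, adjusted p = 0.118), a term for the "ji" libraries (-1.69, adjusted p = 0.0701), without both of them (-1.77, adjusted p = 0.112) and with a replicate block (-1.68, adjusted p = 0.0789).

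Of 8 listed markers of denervated and embryonic fibres, 7 were matched and tested and 2 rose, the transcription factor Runx1 and the growth arrest gene Gadd45a. The other 5 tested, among them the embryonic myosin Myh3 and the myogenic factor Myog, did not pass. The summed level of that list was 118 to 192 CPM in control and 691, 295 and 185 CPM in ACS replicates 1, 2 and 3, and the groups overlapped.

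**Figure D5:**
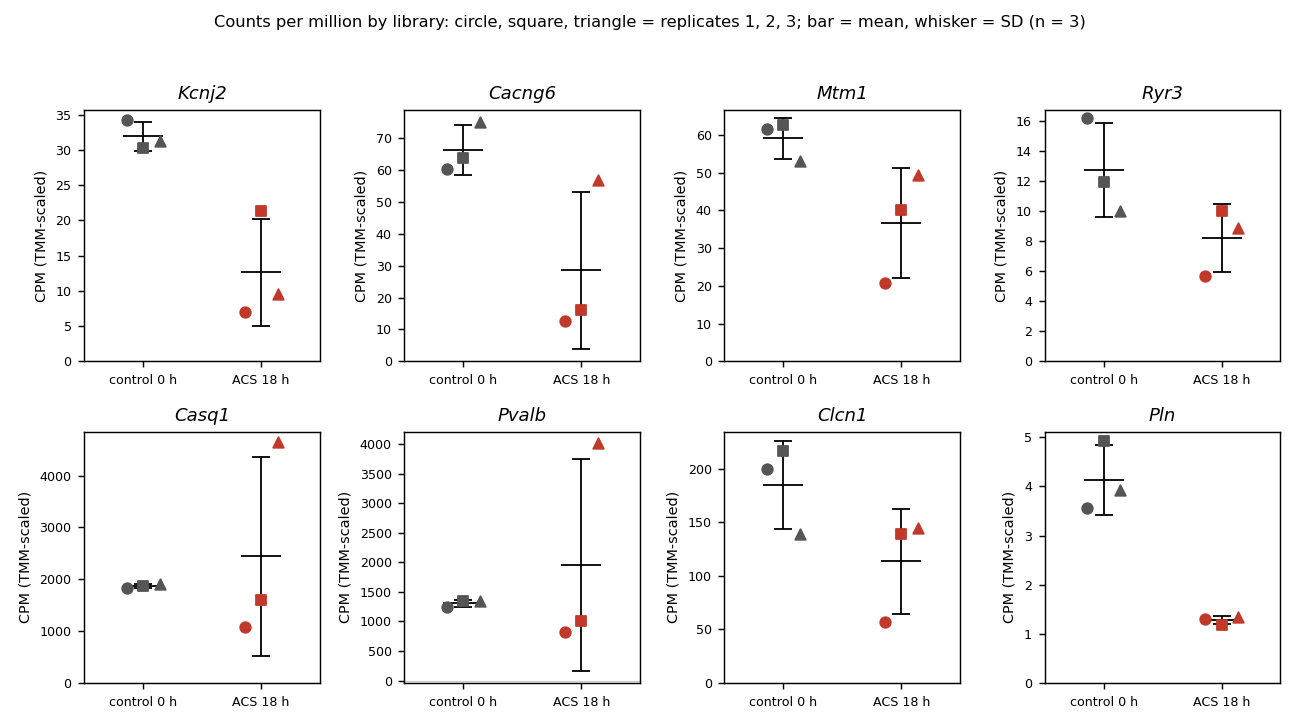
TMM-scaled CPM of 8 genes in each library, on axes that include 0 (circle, square and triangle are replicates 1, 2 and 3; bar and whisker are the mean and SD of 3 libraries). Kcnj2, Cacng6, Mtm1 and Ryr3 are lower in all ACS libraries without passing the test, Casq1 and Pvalb are high in ACS replicate 3, the groups of Clcn1 overlap, and Pln passed.

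Markers of other cell types were measured beside these genes, since some, such as Itpr1, Stim1 and Dnm2, are also made outside fibres. Of 8 smooth muscle and pericyte markers 0 passed in edgeR (2 lower at an unadjusted p under 0.05), with summed levels of 356 to 453 CPM in control and 273 to 339 CPM in ACS muscle. Of 7 endothelial markers 0 passed (1 lower at an unadjusted p under 0.05), at 244 to 379 and 188 to 530 CPM. Of 8 fibroblast markers 0 passed (6 higher at an unadjusted p under 0.05), at 808 to 1209 and 2547 to 3154 CPM, and of 6 Schwann cell markers 0 passed (1 lower), at 88.5 to 120 and 54.3 to 84.9 CPM. Of 5 tested satellite cell markers 1 rose, Myf5, and 1 fell, Myod1, at 69.3 to 84.9 and 34.7 to 50.4 CPM. No marker of these lists was at 0 in all libraries, and their part in the values of the 34 genes was not tested.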

How the data were processed

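Total RNA was depleted of ribosomal RNA before library preparation, per the labels' protocols. The table the authors deposited gives whole-number read counts and FPKM values per Ensembl gene, per the file headers. Per the submitters' processing notes, the tools included HISAT2 2.0.4 and StringTie 1.3.0 and the build was Rnor 6.0. For the counting tool, strand setting and multiply mapped reads, nothing is stated in the sources used here. Counts were tested with edgeR 4.0.16 in R 4.3.3 (filterByExpr with a minimum count of 10 and a minimum total count of 15, TMM factors, quasi-likelihood F test, Benjamini-Hochberg threshold 0.05), which kept 12873 genes, with a common biological coefficient of variation of 0.381. CPM are TMM-scaled, and standard errors come from the F statistic. FPKM, which equalled the count over 1 length and the library total to within 0.1% in all 13786 genes checked, were used for levels between genes and for ratios.

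Symbols were used for matching: of 164 listed, 155 were found, 1 under an older name. A few further genes of the lists are not reported here and are in none of their counts. Promoter sequences are RefSeq's, on GRCr8. The genes and lists were chosen with earlier results of these data known. Values per library are given for genes past the threshold, the 12 of the 34 with the smallest p, the gene with the highest control FPKM in each role group and the genes of the 7 ratios. Of the other pathway genes, those past the threshold are named. Some genes outside this rule (Cacng1, Cacna2d1, Fkbp1a, Asph, Jsrp1, Sypl2, Hrc, Srl, Kcnj11, Myl2, Homer3, Orai2, Dysf, Atp2b4, Kcnq5, Cep85l, Tmed1 and the markers that passed) were named after their values were seen. Every pair of libraries differed beyond sampling noise (chi-square per degree of freedom 38.2 or more). The alternatives changed the scaling (myofibre reference genes, library totals, DESeq2's size factors, or TMM with haemoglobin and mitochondrial genes removed), the test (DESeq2 1.42.0, limma 3.58.1 voom, limma on log2(FPKM + 1)) or the filter, or added a replicate block, and left out the "ji" libraries together or each library in turn.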

Additional observations from a re-analysis of the deposited data

How the results depend on the processing

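The count of the 34 genes called higher was 0 under every alternative run. In 2 of these runs 33 of the 34 were tested: limma on log2(FPKM + 1) left out Ryr3, and a filter of 50 counts in every library of a group left out Sln. The count called lower, 0 with all libraries, was 1 with DESeq2 (Kcnj2) and 1 without both "ji" libraries (Cacng6), and lay between 0 and 1 when single libraries were left out (Kcnj2 without ACS replicate 2, Cacng6 without ACS replicate 3). All genes called, 533 in edgeR, numbered 104 when scaled to the myofibre reference genes, 1793 with DESeq2, 333 with limma-voom, 908 without a filter, 280 with a term for the "ji" libraries, 201 without them, and 0 to 1684 with single libraries left out (0 without any 1 control library). Scaling by totals moved the split from 442 higher and 91 lower to 342 and 225, and limma on log2(FPKM + 1) to 249 and 268. Other pathway genes called higher, 0 in edgeR, numbered 3 with DESeq2 and 0 to 3 with single libraries left out (3 without ACS replicate 3). Those called lower, 1 in edgeR, numbered 2 by totals, 3 with DESeq2, 2 with limma on FPKM, 0 to 3 with single libraries left out, and 0 with the myofibre scaling, limma-voom, the "ji" term or without the "ji" libraries. The cause of these shifts was not tested.

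With a replicate block, edgeR called 0 of the 34 genes in either direction, 442 genes higher and 63 lower over all, and 0 other pathway genes in either direction (Pln, adjusted p = 0.0789). Deviations from the group means correlated at -0.07, 0.0014 and 0.03 for replicate numbers 1, 2 and 3. Control replicates 1 and 2 each correlated best with another number, but every correlation was near 0, between -0.071 and 0.077. They gave no sign of pairing by number, and with 3 libraries a group they cannot exclude it.

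Genes that did not pass changed sign under some settings. Scaled by totals, the log2 fold change was -0.0376 for Itpr1, -0.0762 for Orai1, -0.21 for Bin1 and -0.22 for Trdn. On log2(FPKM + 1) it was -0.0466 for Itpr1, -0.14 for Pvalb, -0.15 for Orai1, -0.32 for Bin1, -0.25 for Trdn and -0.23 for Casq1, and in limma-voom -0.0124 for Bin1. Without both "ji" libraries it was -0.50 for Pvalb, -0.31 for Bin1, -0.17 for Trdn and -0.46 for Casq1. With single libraries left out it ranged from -0.23 to 0.30 for Bin1, -0.48 to 0.18 for Cacna1s, -0.48 to 0.74 for Casq1, -0.35 to 0.13 for Jph1, -0.11 to 0.34 for Orai1, -0.52 to 0.94 for Pvalb, -0.37 to 0.21 for Ryr1, -0.31 to 0.22 for Scn4a, -0.34 to 0.0743 for Stim1 and -0.30 to 0.28 for Trdn. Kcnj2 stayed between -1.97 and -1.05 there and Cacng6 between -2.20 and -0.86. The 7 ratios moved by less than the spread between libraries under every alternative run, but this was fixed in advance for most of them. A replicate block leaves the mean difference as it is, and leaving out 1 of 3 libraries cannot move it past that spread. With single libraries left out, the difference changed sign for Atp2a2 to Atp2a1 (-0.30 to 0.22) and Cacna1s to Ryr1 (-0.12 to 0.074). The other ratios kept their sign, and Sln to Atp2a1 ranged from -2.84 to -0.62.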
